A study of Mus musculus with 16 samples.

Results

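The levels of 10 embryonic growth genes are described here in germs of the mouse first molar. They are the chromatin factors Hmga2 and Hmga1, the RNA-binding proteins Igf2bp1, Igf2bp2, Igf2bp3 and Lin28b, the growth factors Igf2 and Igf1, the imprinted RNA H19 and the receptor gene Igf1r. These 10 genes of the 23337 counted in every library are listed by name, and the list was chosen by their levels across the 16 libraries, tooth labels and stages. Their levels by tooth label and stage are therefore a description: fitted sizes are given with their errors, and whether a size passed the threshold used for all genes is stated without a p-value and is not read as support. All 10 were among the 16287 genes that passed the filter on low counts.

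Poly(A) RNA was sequenced from first molar germs, the buds from which the first cheek teeth grow, taken from 8 wild-type embryos of CD1, an outbred mouse strain. Each embryo is labelled as 1 male individual, and each gave 1 library labelled as upper germs and 1 labelled as lower germs, with the left and right germ of that jaw pooled. The 8 embryos stand at steps of 0.5 days from embryonic day E14.5 to E18.0, so each combination of label and stage is a single library. No library was treated or mutant, and a stage is also 1 embryo, so that stage and embryo cannot be told apart.

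Hmga2 and Hmga1 bind AT-rich DNA and bend it, and Hmga2 is abundant in embryos and low in most adult tissues. The let-7 microRNAs pair with the 3′ untranslated regions of Hmga2, Lin28b and Igf2bp messages and lower them, while Lin28 proteins block the making of let-7. Igf2bp proteins hold and stabilise their target messages, among them that of Igf2, a fetal growth factor which signals through the Igf1 receptor. Igf2 and H19 are imprinted neighbours, transcribed from the paternal and the maternal chromosome respectively.

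The let-7 sequences and their matches are shown because they are the sequence feature that several of these genes share. RefSeq (GRCm38.p6) held 10 names of mature let-7, and 9 of them carried the same seed, bases 2 to 8, printed in capitals.
mmu-let-7a-5p: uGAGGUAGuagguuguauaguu
mmu-let-7g-5p: uGAGGUAGuaguuuguacaguu
mmu-let-7d-5p: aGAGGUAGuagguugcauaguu
The DNA letters that pair with this seed, CTACCTC, were searched on the transcribed strand only, in the longest annotated 3′ untranslated region of each gene (GRCm38, mm10). The match is in capitals within 23 bases of each gene's own strand, which is the minus strand for all lines here. All matches of Hmga2 are printed, but for Lin28b and the Igf2bp genes only those followed by an A.
Hmga2 site 1, chr10:120364224-120364246: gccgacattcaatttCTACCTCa
Hmga2 site 2, chr10:120362987-120363009: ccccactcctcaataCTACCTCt
Hmga2 site 3, chr10:120362549-120362571: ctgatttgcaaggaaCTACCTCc
Hmga2 site 4, chr10:120361691-120361713: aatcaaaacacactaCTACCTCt
Lin28b site 1, chr10:45381022-45381044: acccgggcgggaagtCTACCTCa
Igf2bp1 site 1, chr11:95961778-95961800: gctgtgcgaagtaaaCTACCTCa
Igf2bp1 site 2, chr11:95959357-95959379: cagcagtgctattaaCTACCTCa
Igf2bp1 site 3, chr11:95958763-95958785: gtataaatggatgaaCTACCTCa
Igf2bp2 site 1, chr16:22059473-22059495: acacacaaataaaagCTACCTCa
Igf2bp3 site 1, chr6:49086787-49086809: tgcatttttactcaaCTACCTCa

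Hmga2, Igf2bp1 and Lin28b held 4 matches each, Igf1r held 2, and Hmga1, Igf2bp2, Igf2bp3 and Igf1 held 1 each. Igf2 held 0 in its 3′ untranslated region, and H19, which encodes no protein, held 0 in its whole transcript. Among 13919 tested genes with an annotated 3′ untranslated region, 10.4% had at least 1 match and 0.172% had 3 or more. Length matters to such counts, and among genes whose region is about as long as that of Hmga2 17.46% had at least 1 match, against 34.2% for Igf2bp1 and 24.6% for Lin28b. The share with 3 or more matches is over regions of all lengths, so it is no like comparison for these long regions. A match is a run of letters, and binding was not measured. Mature let-7 is too short for these libraries, and the 11 let-7 gene entries held between 0 and 225 counts each over all 16 libraries.

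The libraries held 33146758 to 44565205 counts on genes, and values are given as CPM, the counts per 1000000 of that total. A difference or slope is said to pass the threshold, or to be called, at an adjusted p under 0.05 over all genes tested. Some values go against the labels. Pou3f3, a transcription factor gene, lay between 4.45 and 10.1 CPM in the libraries of individuals 1, 3, 5 and 7 and between 60.1 and 131.5 CPM in those of individuals 2, 4, 6 and 8, under both tooth labels. The letter codes in the table names run through the 8 libraries labelled upper in stage order and then the 8 labelled lower, so this is an alternation from each library to the next. Xist, expressed from an inactive X chromosome, was present in all 16 libraries although the embryos are labelled male, at 431.8 and 542.3 CPM in the libraries of individuals 1 and 2 labelled lower and at 1499 to 1928 CPM elsewhere. The Y-linked genes Uty, Kdm5d, Eif2s3y and Ddx3y together held 2 counts. A further code in the table names follows the tooth label, so tooth label and whatever that code marks cannot be told apart. The groups are called labelled upper and labelled lower throughout. Without individuals 1 and 2, the same numbers of these 10 genes passed the threshold between the labels, 6 higher in labelled upper and 1 higher in labelled lower. This drops the libraries with low Xist but keeps the alternation of Pou3f3 among the others, so it does not test the tooth labels.

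Levels of different genes are compared per kilobase of annotated exon. H19 was the most abundant of the 10, at a mean of 1540 CPM per kilobase over the 16 libraries, followed by Igf2 at 340.8. Hmga2 stood at 63.5 and Igf2bp2 at 42.4 CPM per kilobase. Igf2bp3 at 26.4 and Igf1r at 25.2 CPM per kilobase lay close together, ahead of Igf1 at 12.9, Igf2bp1 at 8.04 and Hmga1 at 5.10. Lin28b was the lowest at 0.171 CPM per kilobase, and its relative Lin28a had 37 counts over all libraries. The abundant Igf2bp message was thus not that of Igf2bp1, which was the lowest of the 3 per kilobase in both labels. In whole-germ RNA, fewer cells that express a gene and less RNA per cell cannot be told apart.

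Hmga2 lies on chromosome 10 (GRCm38, chr10:120361275-120476469, minus strand). In the libraries labelled upper, from E14.5 to E18.0, it stood at 442.6, 489.2, 340.5, 338.6, 236.2, 275.8, 200.2 and 235.1 CPM. In those labelled lower it stood at 180.8, 218.7, 170.9, 181.3, 139.5, 177.9, 104.7 and 138.0 CPM. The labels overlapped slightly, because the lowest labelled upper library (200.2 CPM) lay below the highest labelled lower library (218.7 CPM), and within every individual the labelled upper value was higher. The fitted difference, upper minus lower, was 0.93 ± 0.11 on the log2 scale (SE, 8 libraries a label), and 0.83 without individuals 1 and 2. The fitted slope was -0.34 ± 0.05 log2 per day in labelled upper, against -0.19 ± 0.06 in labelled lower, and only the former passed the threshold.

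The decline of Hmga2 ran on across the boundary between the labels. In the letter-code order, each library was lower than the one 2 places before it at 14 of 14 steps, the 2 steps that cross from labelled upper to labelled lower included. Such a fall at 13 or more of 14 steps was found in 0.233% of the genes tested, and 3 of the 10 growth genes did so (Hmga2, Igf2bp1 and Igf2bp3). Between neighbouring libraries Hmga2 moved in the same direction as Pou3f3 at 14 of 15 steps. From the first to the last library of the order the CPM was 3.21 times lower.

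Hmga1, the close relative, lies on chromosome 17 and was low in counts. It ranged over 7.60, 10.6 and 12.2 CPM (lowest, median, highest) in labelled upper and over 9.99, 11.5 and 14.4 CPM in labelled lower. The labels overlapped over most of their range, and the labelled upper value was the higher one in 2 of 8 individuals. Its fitted difference of -0.19 ± 0.11 log2 did not pass the threshold, and neither did its slopes of -0.06 ± 0.07 and 0.03 ± 0.05 log2 per day. Reads of Hmga1 and Hmga2 can be shared with near-identical copies, and Hmga2-ps1, a pseudogene of Hmga2, had 492 counts in all. Exons of Hmga1 overlap those of AI413582 and Gm49774, and reads there cannot be assigned with certainty.

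**Figure D1:**
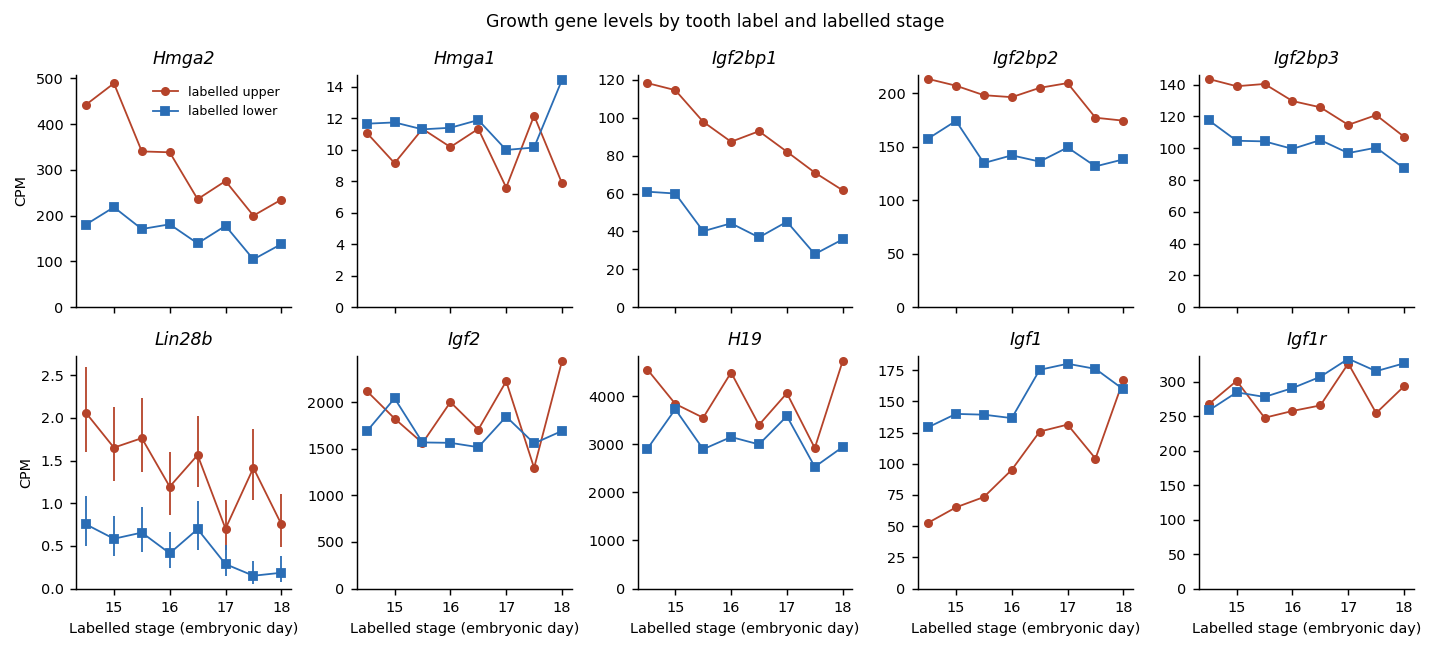
CPM of the growth genes (y axis, from 0) against labelled embryonic day (x axis), 1 point per library, in labelled upper and labelled lower; bars on Lin28b are exact 95% Poisson intervals for counting error. Hmga2 falls from 442.6 to 235.1 CPM in labelled upper and lies lower in every labelled lower library of the same individual.

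Lin28b, on chromosome 10, encodes the RNA-binding protein that blocks let-7 maturation, and it was close to the low-count minimum. Labelled upper libraries held 25 to 70 counts and labelled lower libraries 6 to 28, and 14 of the 16 reached the low-count minimum. The CPM ranged over 0.701, 1.49 and 2.06 (lowest, median, highest) in labelled upper and over 0.150, 0.498 and 0.752 in labelled lower. The labels overlapped only through the lowest labelled upper library, at E17.0, and the labelled upper value was higher in 8 of 8 individuals. The fitted difference of 1.65 ± 0.23 log2 was the largest of the 10. Slopes of -0.33 ± 0.11 log2 per day in labelled upper and -0.58 ± 0.16 in labelled lower did not pass the threshold. The last labelled upper library, at 0.754 CPM, and the first labelled lower one, at 0.752 CPM, were almost equal.

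Igf2bp1, on chromosome 11, was higher in labelled upper throughout. Its CPM values in labelled upper, from E14.5 to E18.0, were 118.3, 114.6, 97.9, 87.4, 92.9, 82.1, 71.1 and 61.8. In labelled lower they were 61.0, 60.0, 40.1, 44.3, 36.9, 45.2, 28.1 and 35.8. Every labelled upper library lay above every labelled lower one, but by a small margin, 61.8 against 61.0 CPM, at the point where the last labelled upper library of the code order meets the first labelled lower one. No overlap with labelled upper higher was found in 2.89% of the genes tested and in 2 of the 10 growth genes, Igf2bp1 and Igf2bp2, while no overlap with labelled lower higher was found in 3.52% of all genes and in none of the 10. The fitted difference was 1.05 ± 0.08 log2, and the slopes were alike, -0.26 ± 0.02 log2 per day in labelled upper and -0.25 ± 0.06 in labelled lower, both past the threshold. From the first to the last library of the code order the CPM was 3.30 times lower, beside 3.21 times for Hmga2, and it was lower at 13 of 14 steps between libraries 2 places apart.

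Igf2bp2, on chromosome 16, was higher in level, and its labels lay closer. It ranged over 174.4, 201.7 and 213.4 CPM (lowest, median, highest) in labelled upper and over 131.7, 140.1 and 174.2 CPM in labelled lower. The labels were barely separate, with the lowest labelled upper library at 174.4 CPM and the highest labelled lower one at 174.2 CPM. The fitted difference was 0.45 ± 0.05 log2, and slopes of -0.07 ± 0.02 and -0.07 ± 0.03 log2 per day did not pass the threshold.

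Igf2bp3, on chromosome 6, ranged over 107.2, 127.7 and 143.6 CPM in labelled upper and over 87.4, 102.4 and 117.6 CPM in labelled lower. These ranges overlapped, while the labelled upper value was higher within 8 of 8 individuals. The fitted difference was 0.33 ± 0.04 log2, and of its slopes that of -0.12 ± 0.02 log2 per day in labelled upper passed the threshold and that of -0.08 ± 0.02 in labelled lower did not. Unlike Hmga2, it moved with Pou3f3 at 2 of 15 steps between neighbouring libraries and against it at 13. Its exons overlap those of Malsu1, and reads there cannot be assigned with certainty. The same limit holds for Hmga2 (overlapping 1700006J14Rik), Igf2bp1 (Gm29202 and Mir3063) and H19 (Gm27483, Gm27786 and Mir675).

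The balance among the 3 Igf2bp messages varied across the libraries. Per kilobase, Igf2bp2 was 3.74 to 5.85 times Igf2bp1 in labelled upper and 5.35 to 9.72 times in labelled lower. The ratio of Igf2bp3 to Igf2bp1 per kilobase was 2.34 to 3.35 in labelled upper and 3.36 to 6.90 in labelled lower. The first pair of ranges overlapped, and the second pair did not, at 3.35 against 3.36.

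**Figure D2:**
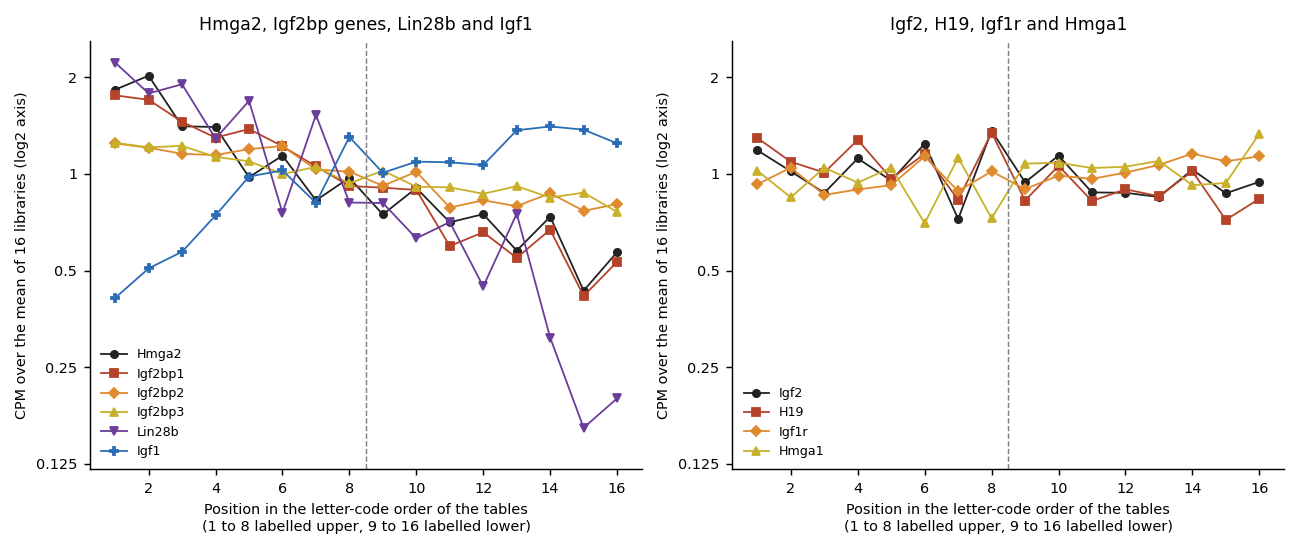
CPM of each gene divided by its own mean over 16 libraries (y axis, log2 spaced) against position in the letter-code order of the tables (x axis, 1 to 8 labelled upper and 9 to 16 labelled lower), 1 point per library. Hmga2 declines with a zigzag that continues past the label boundary, and Igf2bp1 passes the boundary with no jump (61.8 to 61.0 CPM).

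Igf2, the fetal growth factor on chromosome 7, was abundant and showed no steady course with stage. It ranged over 1294, 1911 and 2439 CPM (lowest, median, highest) in labelled upper and over 1516, 1626 and 2040 CPM in labelled lower. The highest and the lowest library of all were both labelled upper and adjacent, at E18.0 and E17.5, and the labels overlapped widely. The labelled upper value was higher in 5 of 8 individuals. The fitted difference of 0.18 ± 0.11 log2 did not pass the threshold, nor did the slopes of 0.02 ± 0.08 and -0.03 ± 0.04 log2 per day. Exons of Igf2 overlap those of its antisense gene, which stood at 9.15 to 21.5 CPM, and the library kit does not mark strand.

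H19 was the most abundant of the 10 and made up 0.253% to 0.473% of all gene counts. It ranged over 2924, 3954 and 4733 CPM in labelled upper and over 2532, 2972 and 3732 CPM in labelled lower. Although these ranges overlapped, the labelled upper value was higher in 8 of 8 individuals, by 0.04 to 0.68 log2. The fitted difference was 0.36 ± 0.10 log2 and passed the threshold, but not without individual 1 or over E16.5 to E18.0 alone. The slopes of -0.03 ± 0.06 and -0.04 ± 0.05 log2 per day did not pass it.

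H19 and Igf2 rose and fell together from library to library. The Pearson correlation of their log2 CPM was 0.84 over 16 libraries, 0.93 within labelled upper and 0.80 within labelled lower, a description over libraries that share stage, label and dissection. H19 moved in the same direction as Pou3f3 at 14 of 15 steps and Igf2 at 13. Sharing that direction at 12 or more steps was common, at 20.1% of the genes tested, and 4 of the 10 growth genes did so (Hmga2, H19, Igf2 and Igf1r). Moving against it at 12 or more steps was found in 18.6% of the genes tested and in 2 of the 10, Igf2bp3 and Lin28b. The count ratio of H19 to Igf2 ranged over 1.83, 2.13 and 2.28 (lowest, median, highest) in labelled upper and over 1.63, 1.84 and 2.02 in labelled lower.

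**Figure D3:**
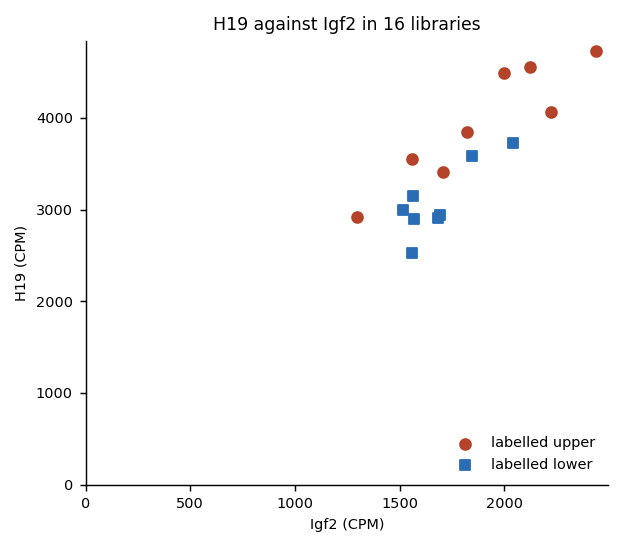
H19 against Igf2, both in CPM with axes from 0, 1 point per library, in labelled upper and labelled lower. The points of each label rise together. The median ratio of H19 to Igf2 is higher in labelled upper, 2.13 against 1.84, but the ranges of the ratio overlap (1.83 to 2.28 against 1.63 to 2.02).

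Igf1, which encodes the ligand that drives growth mainly after birth, went the other way from Hmga2. On chromosome 10, it stood at 52.7, 65.1, 73.3, 95.2, 125.8, 131.4, 104.2 and 167.1 CPM in labelled upper from E14.5 to E18.0. In labelled lower it stood at 129.3, 140.0, 139.4, 136.6, 175.3, 180.2, 176.1 and 159.7 CPM. The early labelled upper libraries were the low ones, the labelled upper libraries of E17.0 and E18.0 reached into the labelled lower range, and the labelled lower value was higher in 7 of 8 individuals, all but individual 8. The fitted difference was -0.67 ± 0.12 log2, the only one of the 10 past the threshold in that direction. It passed the threshold over the 4 stages from E14.5 to E16.0 but not over the 4 from E16.5 to E18.0.

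Igf1r, which encodes the receptor for both ligands, lies on chromosome 7. It ranged over 247.6, 266.3 and 326.2 CPM in labelled upper and over 258.1, 298.8 and 333.1 CPM in labelled lower. The ranges nearly coincided, and the labelled upper value was higher in 2 of 8 individuals. The fitted difference of -0.10 ± 0.06 log2 did not pass the threshold. Its slope of 0.10 ± 0.02 log2 per day in labelled lower passed it, and that of 0.02 ± 0.04 in labelled upper did not.

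Between the labels, 6 of the 10 growth genes were past the threshold and higher in labelled upper (Hmga2, Igf2bp1, Igf2bp2, Igf2bp3, Lin28b and H19), where 18.1% of all genes tested were. One gene, Igf1, was higher in labelled lower, where 18.1% of all genes were, and Hmga1, Igf2 and Igf1r did not pass. The median difference of the 10 was 0.34 log2, against 0.01 for all genes tested. In labelled upper, 1 gene rose with stage (Igf1, 3.72% of all genes) and 3 fell (Hmga2, Igf2bp1 and Igf2bp3, 2.41% of all genes). In labelled lower, 1 rose (Igf1r, 2.63% of all genes) and 1 fell (Igf2bp1, 1.49% of all genes). These genes were listed with these values known, so nothing is read from the counts.
The falling call of Igf2bp3 in labelled upper was lost without individual 1 or 8. In labelled lower, that of Igf2bp1 was lost without individual 1, 2, 4, 5, 7 or 8, and the rising call of Igf1r without individual 1, 7 or 8, each left out in turn.
With the run number in the table names as a batch term, none of the 10 passed for a trend with stage in either label, where 2 and 19 genes of all passed; run number follows stage within each label. Without individuals 1 and 2, the calls for Igf1r and Igf2bp1 in labelled lower were also lost, and 1 gene of all passed.

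**Figure D4:**
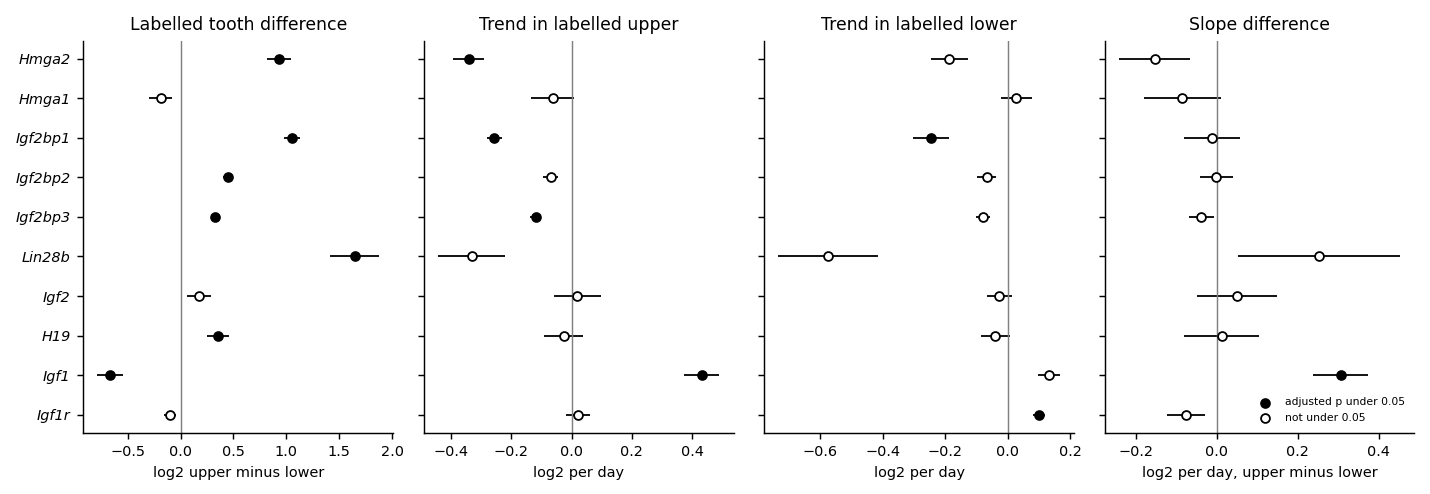
Fitted log2 values with SE bars for the 10 growth genes: labelled upper minus labelled lower, the slope per day in each label, and the difference between the slopes. Filled points passed an adjusted p of 0.05; Igf2bp1 (1.05), Lin28b (1.65) and Hmga2 (0.93) lie farthest right in the first panel and Igf1 (-0.67) farthest left.

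The course with stage was also fitted for its difference between the labels, and as the genes were chosen by these levels this too is a description. For Igf1 the slope was 0.43 ± 0.06 log2 per day in labelled upper, against 0.13 ± 0.03 in labelled lower, and the difference in the joint model was 0.31 ± 0.07 (SE). Igf1 was the only one of the 10 past the threshold, where 0.682% of all genes had a called slope more positive in labelled upper. That call was lost without individual 1, 2, 3, 4, 5, 6 or 8, each left out in turn, and without individuals 1 and 2 together. For Hmga2 the slope difference was -0.15 ± 0.09 log2 per day, and for Igf2bp1 it was -0.01 ± 0.07. By edgeR 0 growth genes had a called slope more positive in labelled lower, as at an unadjusted p under 0.05 and by DESeq2, and edgeR called 0.602% of all genes.

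Genes whose log2 CPM was most like that of a growth gene were sought by Pearson correlation over the 16 libraries among 12617 well counted genes. Nearest to Hmga2 were Cnih2 (0.973), Dclk3 (0.973), Prrx1 (0.972), a homeobox gene of limb and face mesenchyme, Pcdhac2 (0.968), whose exons are shared within the protocadherin cluster so that its counts are uncertain, and Gria4 (0.967). Prrx1 stood at 591.3 CPM in the first library of the code order and at 194.8 in the last. Nearest to Igf2bp1 were Has2 (0.979), which encodes a hyaluronan synthase, Idh1 (0.975), Zfp146 (0.973), Gria4 (0.969) and Igf2bp2 (0.968), itself one of the 10. For Igf2 the nearest was Wnt9a (0.924), then Glt25d2 (0.864), Nrk (0.857), Ebf2 (0.856) and H19 (0.843). The nearest to Igf1 were Aoc3 (0.962), Parp9 (0.951), Stat3 (0.946), Heatr8 (0.942) and Dpep1 (0.941). Among the growth genes, the correlation of Hmga2 with Igf2bp1 was 0.94 over 16 libraries, 0.85 within labelled upper and 0.91 within labelled lower, and that of Hmga2 with Igf1 was -0.87. All such points share embryos, stages and labels.

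Of the other genes of the IGF pathway, 22 of 24 listed were tested, and between the labels 7 were higher in labelled upper against 6 in labelled lower. Each direction was called in 18.1% of all genes. Over E14.5 to E16.0 alone 4 were higher in labelled upper against 6 in labelled lower, and over E16.5 to E18.0 alone 4 and 3 were. The 4 with the largest called differences follow. Genes named here and in the lists below were picked by the label test itself. Their p-values between the labels are therefore a description and are not read as support. Igfbpl1, a binding-protein-like gene, averaged 5.40 ± 5.91 CPM in labelled upper and 59.6 ± 35.4 in labelled lower (SD, 8 libraries each), a difference of -3.96 ± 0.52 log2 (edgeR quasi-likelihood F test, Benjamini-Hochberg adjusted p = 5.79e-05). The labels nearly met for this gene, with the highest labelled upper library at 15.7 CPM and the lowest labelled lower one at 15.8 CPM. Pappa, a protease that cleaves IGF-binding proteins, averaged 3.49 ± 2.68 against 34.1 ± 8.28 CPM, a difference of -3.45 ± 0.29 log2 (adjusted p = 1.21e-06, same test), and its labels did not overlap. Its relative Pappa2 lay the other way, at 215.3 ± 51.7 against 87.0 ± 32.6 CPM, 1.35 ± 0.20 log2 (adjusted p = 1.71e-04, same test), and over E14.5 to E16.0 alone it was 0.90 and did not pass (adjusted p = 0.0611, same test). Irs4, a receptor substrate, was also higher in labelled upper, 2.43 ± 0.39 log2, at 2.93 ± 1.62 against 0.574 ± 0.325 CPM. With stage, 4 genes of the list rose in labelled upper (Igfbp5, Igfbp7, Igfbpl1 and Pappa) and 2 in labelled lower (Igfbp3 and Igfbp5), beside 3.72% and 2.63% of all genes. None was called as falling by edgeR in either label, beside 2.41% and 1.49% of all genes. At an unadjusted p under 0.05, 1 and 3 of the list fell, and by DESeq2 0 and 0. With the run number as a batch term, only 2 and 19 genes of all passed for a trend.

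Imprinted genes other than Igf2 and H19 lay mostly on the labelled upper side. Of 27 tested, 17 were higher in labelled upper and 0 higher in labelled lower by edgeR, with 19 and 0 at an unadjusted p under 0.05 and 16 and 0 by DESeq2. Among all genes tested, edgeR called 18.1% in each direction. Their median difference was 0.37 log2, beside 0.01 for all genes. The list was chosen with earlier results of these data known, so nothing is read from these counts. Slc38a4, an amino acid transporter gene, showed 0.85 ± 0.08 log2 (edgeR quasi-likelihood F test, Benjamini-Hochberg adjusted p = 2.60e-06), at 53.1 ± 11.2 against 29.2 ± 4.50 CPM. Cdkn1c, a brake on the cell cycle, showed 0.64 ± 0.13 log2, Usp29 0.58 ± 0.13 and Zdbf2 0.53 ± 0.06, each higher in labelled upper in 8 of 8 individuals, and Usp29 did not pass over E16.5 to E18.0 alone. Over E14.5 to E16.0 alone 15 were higher in labelled upper against 1 in labelled lower, and over E16.5 to E18.0 alone 9 and 0 were. With stage, Slc38a4 fell in labelled upper, beside 2.41% of all genes, and Zdbf2 and Impact fell in labelled lower, beside 1.49% of all genes.

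**Figure D5:**
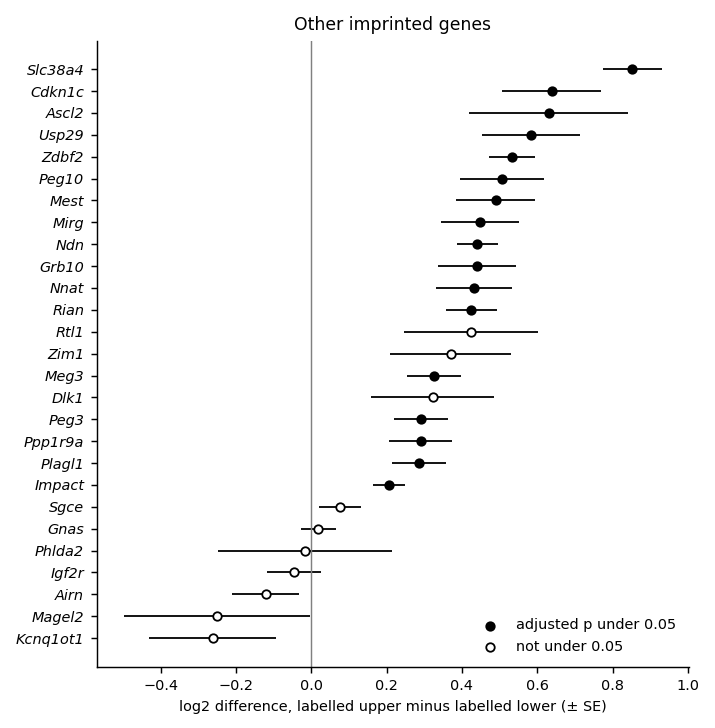
Fitted log2 difference, labelled upper minus labelled lower, with SE bars, for the 27 imprinted genes tested besides Igf2 and H19; filled points passed an adjusted p of 0.05. All 17 filled points lie on the labelled upper side, with Slc38a4 at 0.85, where 18.1% of all genes tested were called in each direction.

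Other genes known as let-7 targets lay on both sides. Of 14 tested, 3 were higher in labelled upper (Ccnd2, Myc and Plagl2) and 5 in labelled lower (among them Ccnd1, Arid3b and Arid3a). Each direction was called in 18.1% of all genes tested, and over E16.5 to E18.0 alone 3 of the list were higher in labelled lower. Ccnd1, a cyclin of the start of the cell cycle, stood at 158.2 ± 28.7 CPM in labelled upper and 337.9 ± 73.4 in labelled lower, -1.08 ± 0.05 log2 (edgeR quasi-likelihood F test, Benjamini-Hochberg adjusted p = 1.09e-08), and it rose with stage in both labels. Myc lay the other way at 0.46 ± 0.06 log2. Over all 1438 tested genes with at least 1 seed match, the growth genes left out, the median label difference was -0.00 log2, with 21.1% higher in labelled upper and 21.1% higher in labelled lower. Among the 173 with 2 or more matches the shares were 15.03% and 24.3%. Among the 21 with 3 or more these were 19.05% and 23.8%, beside 18.8% and 18.9% of all genes with an annotated 3′ untranslated region.

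Genes of microRNA making, 12 tested, gave 2 higher in labelled upper (Ago1, 0.16 ± 0.05 log2, and Tut1, 0.10 ± 0.03) and 1 higher in labelled lower (Ago2, -0.27 ± 0.09). Of 7 other high mobility group genes, 0 were higher in labelled upper by edgeR, also at an unadjusted p under 0.05 and by DESeq2, and 3 were higher in labelled lower (Hmgn3, Hmgn5 and Hmgn2), beside 18.1% of all genes in each direction. Over E14.5 to E16.0 alone only Hmgn3 passed, and Hmgn2 was also lost without individual 3, 4, 5, 6 or 8. Hmgn3, a nucleosome-binding protein gene, showed -0.50 ± 0.08 log2, and its slope difference, upper minus lower, was -0.23 ± 0.04 log2 per day (edgeR quasi-likelihood F test, Benjamini-Hochberg adjusted p = 0.0180). Of 5 genes for proteins that bind alongside Igf2bp proteins, edgeR called 0 between the labels in either direction, and 0 passed at an unadjusted p under 0.05 or by DESeq2. Among 25 cell cycle genes, 3 were higher in labelled upper (Cdk2, Mcm4 and E2f1) and 5 in labelled lower, the latter by small amounts, from Ccne2 at -0.27 ± 0.08 to Top2a at -0.19 ± 0.06 log2 among the 4 largest. These counts stand beside 18.1% of all genes in each direction, and they were unsteady. By edgeR 0 and 0 passed over E14.5 to E16.0 alone, 0 and 2 over E16.5 to E18.0 alone, and 0 and 11 without individuals 1 and 2. With the embryo as a block, 8 were higher in labelled lower, and leaving out 1 individual at a time gave from 1 (without individual 3) to 8 (without individual 1). The microRNA-making counts shifted as well. They fell to 1 higher in labelled upper without individual 3, 5, 6 or 7 and over either range of 4 stages, and to 0 higher in labelled lower without individual 1, 3, 4, 7 or 8 or over E16.5 to E18.0 alone, while 4 were higher in labelled lower over E14.5 to E16.0 alone.

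Markers of the cell types a germ can hold were counted beside the 18.1% of all genes called in each direction. Of 8 dental mesenchyme markers 5 were higher in labelled upper against 0 in labelled lower, and their summed level ranged from 1379 to 1942 CPM in labelled upper, against 740.0 to 1546 CPM in labelled lower. Of 7 erythroid markers tested 4 were higher in labelled upper, at a summed 34.5 to 147.4 CPM against 14.9 to 34.1. Macrophage and leukocyte markers did the reverse: 5 of 8 were higher in labelled lower, with sums of 50.3 to 82.9 against 60.5 to 125.4 CPM. Epithelial markers gave 3 and 2 of 8, with sums of 2744 to 4702 against 3163 to 4233 CPM, and skeletal muscle markers 1 and 1 of 10, with sums of 5.56 to 67.0 against 9.40 to 28.3 CPM. Endothelial markers gave 1 and 3 of 8 (373.3 to 442.2 against 396.7 to 453.5 CPM), and Schwann cell and neuron markers 0 and 3 of 8 (90.7 to 114.5 against 118.1 to 154.5 CPM). Cartilage markers gave 2 and 2 of 7, and bone markers 2 and 1 of 7, with overlapping sums. No marker was at 0 in every library, and the tooth germ markers, epithelial and mesenchymal, were present in all libraries. The part of these cell types in the levels of Hmga2, the Igf2bp genes, H19 and Igf1 was not tested.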

How the data were processed

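Per the labels' protocols, poly(A) libraries came from the TruSeq V2 kit, without strand marking, and both ends of fragments were read for 100 bp. The authors deposited whole-number counts per gene symbol, not normalized. Bowtie2 2.0.2, TopHat2 2.0.6, HTSeq 0.5.3p9 and the genome build mm10 are named in the submitters' processing notes; neither annotation nor strand setting is given in the sources used here. Of all table counts, 11.8% to 14.1% fell on no gene and 0.896% to 1.07% were ambiguous; these summary lines were left out of totals. No 2 of the 16 tables were identical.

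Genes with at least 0.269 CPM (10 counts at the median depth) in at least 2 libraries entered edgeR 4.0.16 under R 4.3.3 (TMM scaling, quasi-likelihood F test, Benjamini-Hochberg adjustment over 16287 genes, threshold 0.05). The label difference used all 16 libraries with a stage spline of 3 degrees of freedom; slopes per day used the 8 libraries of each label; the slope difference used all 16 with an interaction term and, planned as a test, is given for the 10 genes as a description. DESeq2 1.42.0 was an alternative. Label fits over E14.5 to E16.0 or E16.5 to E18.0 alone used only the libraries of those stages. They had a straight line of stage in place of the spline, so calls lost there also reflect fewer libraries and another model. CPM ranges and correlations used Python 3.11.15. The SE of an edgeR value was derived as its absolute size divided by the square root of its F statistic. With 1 library per label and stage, p-values measure scatter of the libraries around these curves. The fits over 16 libraries treat both libraries of an embryo as independent, unless the individual is a block. Poisson intervals cover counting error only. Because the strand is not marked, overlapping genes cannot be told apart.

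Per the labels, libraries of a stage share an embryo, and the deviations of each pair correlated at 0.121 to 0.278. The pairing rests on the labels: Xist differed within individuals 1 and 2, and the alternation of Pou3f3 falls on the same individuals under both labels. The fit with the individual as a replicate block changed no call between the labels for the 10 genes.

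The 10 genes, the gene lists and the markers were chosen with earlier results of these data known. Counts over these lists and markers are therefore a description. Named besides the 10 were, per list, up to 4 genes with the largest called label difference and a mean count of at least 50, and the 5 nearest genes by correlation for Hmga2, Igf2bp1, Igf2 and Igf1; other listed names were given for counts. Ago genes were matched by older symbols. Exon lengths, locations and 3′ untranslated regions came from GENCODE on GRCm38, the assembly mm10 names. Some items are not reported here.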

Additional observations from a re-analysis of the deposited data

Results flagged for a closer look

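Hmga1 in the last library labelled lower, E18.0, stood at 14.4 CPM, apart from the nearest of the other 7 at 11.9 CPM. The gap was 0.573 of the range of the 8 libraries, above Dixon's critical value for 8 samples. Of 20 groups examined in this way (10 genes under 2 labels), 1 was set apart, and chance gives about 1 in 20.

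The fitted slope of Igf1 with stage was more positive in labelled upper than in labelled lower by 0.31 log2 per day, which passed the threshold of the interaction term over all genes. The gene was chosen by these levels, so this is a description. It did not pass without any 1 of individuals 1, 2, 3, 4, 5, 6 and 8.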

How the results depend on the processing

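Between the labels, 5902 genes passed the threshold, and 3163 over E16.5 to E18.0 alone, where 5 of the 10 growth genes were higher in labelled upper against 0 in labelled lower. Leaving out individuals in turn gave 4845 to 5556 genes, 5 to 6 growth genes higher in labelled upper against 1 in labelled lower. Across the alternatives each growth gene kept its direction between the labels, and the calls lost were those of H19 and Igf1 named above. The replicate block gave 6 and 1 growth genes.

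The trend in labelled upper was called in 999 genes, in 2049 by DESeq2 and in 2 with the run number as a term (growth genes 0 rising and 0 falling). Leave-one-out gave 189 to 1470 genes, 1 growth gene rising and 2 to 4 falling. The trend in labelled lower was called in 670 genes, in 1801 by DESeq2 (growth genes 2 rising, 4 falling), in 19 with the run number (0 and 0) and in 1 without individuals 1 and 2 (0 and 0). Leave-one-out gave 34 to 755 genes and 0 to 1 growth gene in each direction. The slope difference was called in 209 genes, in 590 by DESeq2, in 475 with the replicate block and in 0 without individuals 1 and 2, where 0 growth genes were called, as with no filter on low counts. Leave-one-out gave 14 to 136 genes, 0 to 1 growth gene with the slope more positive in labelled upper and 0 in labelled lower.

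Directions turned only for values that did not pass the threshold in the edgeR fits reported above; most lay near 0, but Igf1 in labelled lower stood at 0.13 ± 0.03. With the run number the slopes were 0.086 for H19 and -0.039 for Igf1r in labelled upper and -0.016 for Igf1 in labelled lower. Without individuals 1 and 2 the labelled lower slopes were 0.049 for Igf2 and 0.0015 for Igf2bp2, and with library totals the slope difference of Igf2bp2 was 0.0043. Leaving out individuals in turn gave labelled upper slopes from -0.095 to 0.083 for Igf2, -0.13 to 0.022 for H19 and -0.00063 to 0.043 for Igf1r. Labelled lower slopes lay from -0.064 to 0.055 for Hmga1, -0.044 to 0.016 for Igf2 and -0.083 to 0.0021 for H19. Slope differences lay from -0.19 to 0.067 for Hmga1, -0.052 to 0.069 for Igf2bp1, -0.041 to 0.034 for Igf2bp2, -0.043 to 0.12 for Igf2 and -0.081 to 0.10 for H19. The cause was not tested for any of these. Depth limits Lin28b, at 6 to 28 counts in labelled lower.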
